A study of Drosophila melanogaster with 2 samples.

Results

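The 54 genes described here are the protein-coding genes on the chromosome arms of the fly whose symbol starts with eIF, eEF or eRF in the Ensembl BDGP6 annotation, out of 13945 protein-coding genes there. By name, 44 are initiation, 8 elongation and 2 termination factors. The rule reads only the symbol, but the gene family was picked with earlier results of these data known. Chromatin immunoprecipitation with sequencing (ChIP-seq) had mapped where the product of CG14965, tagged at its C terminus with eGFP, sits on DNA in Drosophila melanogaster embryos, with an antibody to GFP. Both samples belong to 1 group. They are mixed-sex whole embryos, 0 to 24 h old, of 1 transgenic line that stably expresses the fusion, and are numbered biological replicates 3 and 4. No untagged line was analysed here, and whether the line keeps an untagged copy of the protein is not given in the sources used here. Whole embryos mix all tissues, so a site occupied in few cells and a weak site in many cells cannot be told apart.

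The deposited lists hold regions with a summit and a signal value, a score of unstated scale. It is given as a value and a rank within its own list, and values of different lists are not on a shared scale. The list for both replicates pooled and the list of each replicate hold 30000 candidate regions each, and the 1302 optimal peaks, which passed the irreproducible discovery rate (IDR) procedure, are the 1302 highest pooled regions. A region was given to a gene if its summit lay within 500 bp of any annotated transcription start site (TSS) of that gene. A region of a replicate was called high if it ranked among the 1302 highest of that replicate. The lists carry no read numbers, so depth is unknown, and with 1 group no comparison between conditions and no test was made.

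Translation begins when initiation factors bring the small ribosomal subunit, the initiator tRNA and the mRNA together. Elongation factors then deliver each aminoacyl-tRNA and move the ribosome along, and release factors end synthesis at the stop codon. Most genes for these factors are active in nearly every cell. In flies some of their promoters, like many of those of ribosomal protein genes, carry a pyrimidine-rich start called TCT or the element DRE, the binding site of the factor DREF.

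The sequence under the summits is shown for 4 of the 5 genes in which a known element lay within 50 bp of it, and for eIF4EHP, where none of those searched did. Each run is 101 bases of the RefSeq Release 6 genome centred on the summit, 5′ to 3′ on the strand of the translation factor gene, and capitals mark the element. In eIF2beta (chr3L:12526954-12527054, minus strand) the capitals are the core site of the insulator protein CTCF, read on the opposite strand. In eEF1gamma (chr3R:29220096-29220196, plus strand) and eIF1 (chr3L:3222981-3223081, plus strand) they are the DRE. In eEF2 (chr2L:21682119-21682219, minus strand) they are the E-box CACGTG. The eIF4EHP run is chr3R:24109027-24109127, minus strand. The last line gives 61 bases around the inner TSS of eEF2 (chr2L:21682086-21682146, minus strand), with the TCT start in capitals.
eIF2beta: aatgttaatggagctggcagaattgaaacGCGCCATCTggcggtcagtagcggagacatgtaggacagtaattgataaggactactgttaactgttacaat
eEF1gamma: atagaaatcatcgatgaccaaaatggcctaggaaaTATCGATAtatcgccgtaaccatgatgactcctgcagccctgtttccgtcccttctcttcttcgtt
eIF1: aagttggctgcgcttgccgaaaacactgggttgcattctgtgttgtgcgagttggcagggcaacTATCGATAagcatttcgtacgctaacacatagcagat
eEF2: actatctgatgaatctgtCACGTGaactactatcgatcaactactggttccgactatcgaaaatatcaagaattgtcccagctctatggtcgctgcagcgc
eIF4EHP: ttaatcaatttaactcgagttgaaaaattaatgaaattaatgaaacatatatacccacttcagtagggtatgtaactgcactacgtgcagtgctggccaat
eEF2 inner start: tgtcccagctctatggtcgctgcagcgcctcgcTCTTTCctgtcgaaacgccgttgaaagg

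CG14965-eGFP had an optimal peak at the promoter of 8 of the 54 translation factor genes (14.8%, 95% Wilson interval 7.7 to 26.6%), against 4.9% of all protein-coding genes. The 8 were eIF2beta, eIF6, eEF1gamma, eIF1, eIF3c, eEF2, eIF3h and eIF4EHP. Their products act at separate steps: 6 are initiation factors or relatives of them, 2 are elongation factors, and neither termination factor gene had a peak. A candidate region of any strength lay at 30 members (55.6%, 42.4 to 68.0%), against 42.5% of protein-coding genes, a share the interval just holds. Among genes with such a region, the median pooled signal of the strongest one was 41.1 in the members and 31.7 over all protein-coding genes, and the 90th percentile was 146 against 76.9. The intervals cover the counting of genes only.

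**Figure D1:**
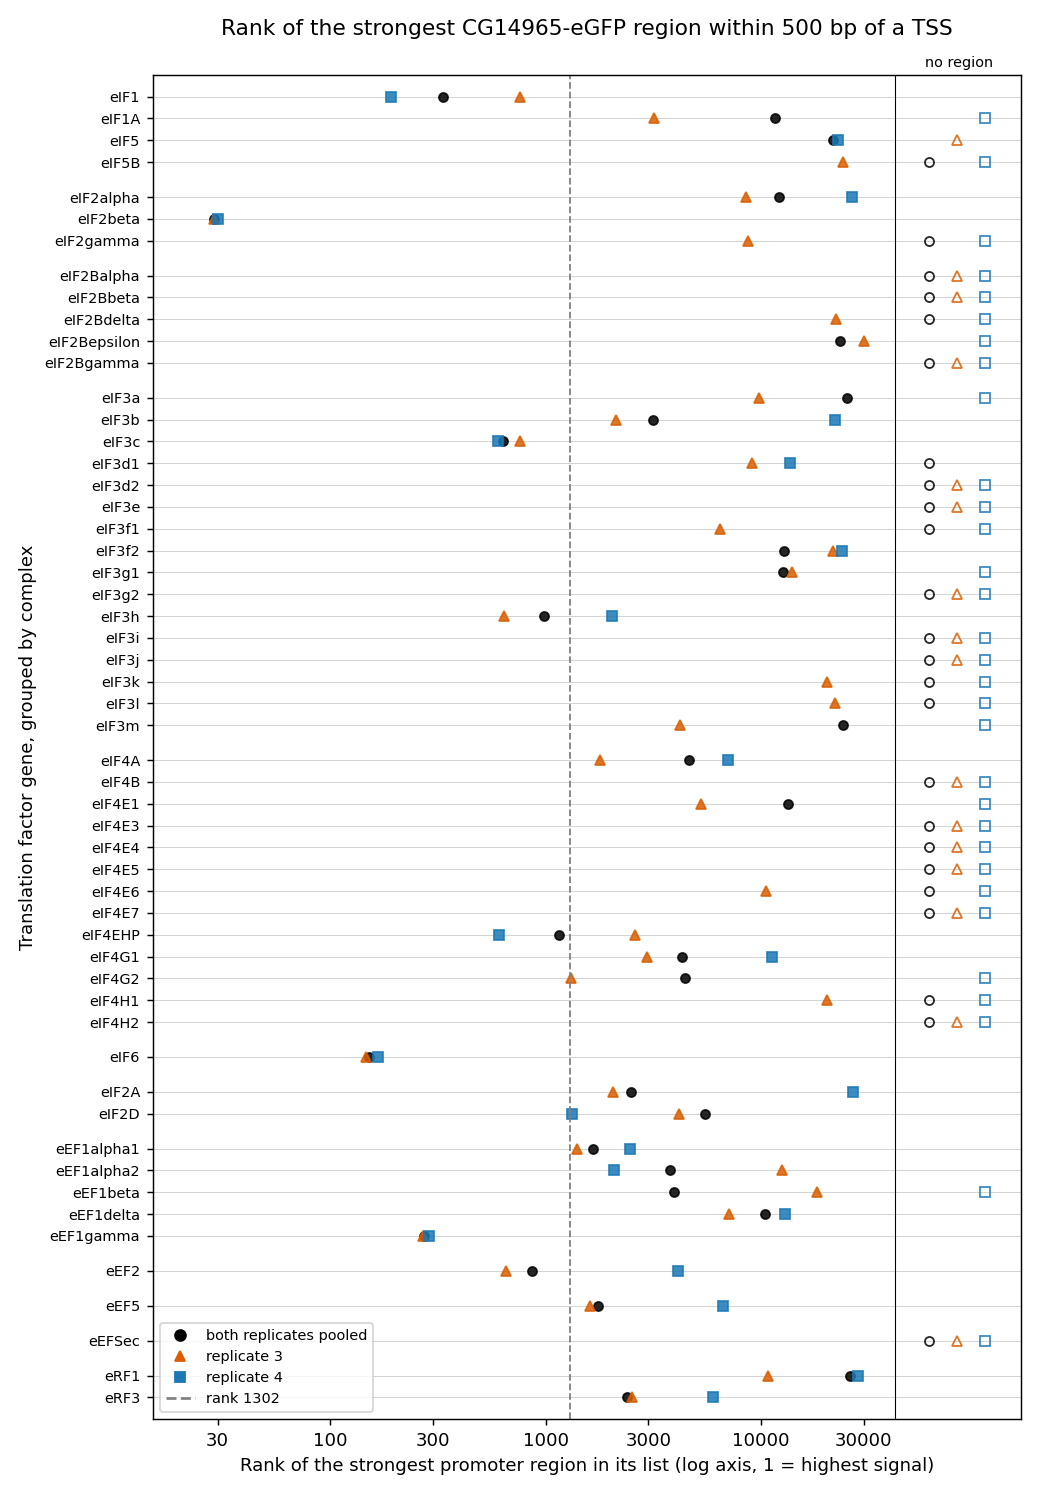
Rank of the strongest region within 500 bp of a TSS for each of the 54 translation factor genes (rows, grouped by complex) in the pooled list (black circles), replicate 3 (orange triangles) and replicate 4 (blue squares), on a log axis where 1 is the highest signal. Open symbols on the right mark a list with no region, the dashed line is rank 1302, and eIF2beta stands at ranks 29, 29 and 30.

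Some members ranked high in both replicates and others in either replicate alone. Replicate 3 had a high promoter region at 7 members (13%, against 5.15% of protein-coding genes) and replicate 4 at 6 (11.1%, against 4.39%). Both replicates had one at 5 members (9.26%, against 3.13%), namely eIF2beta, eIF6, eEF1gamma, eIF1 and eIF3c. Over all protein-coding genes, 718 had a high promoter region in replicate 3, 612 in replicate 4 and 437 in both. Genes high in both replicates were thus common there too, and the overlap is no result about the members. The peaks of eEF2 and eIF3h were high in replicate 3 alone and that of eIF4EHP in replicate 4 alone. Across the 22 members with a promoter region in both replicates, Spearman's rho of the ranks was 0.689, a description across genes that share the same 2 libraries. The ranks are those of each replicate's strongest region, which need not lie at the same site in both.

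Among the factors that carry the initiator tRNA, eIF2beta stood apart. This gene encodes the beta subunit of eIF2, which binds initiator tRNA together with GTP. Its peak (FBgn0004926, chr3L:12526643-12527221 on dm6) had a pooled signal of 1342 at rank 29 of 1302, and its promoter ranked 10 among all protein-coding genes with a promoter region. The signal was 827 in replicate 3 (rank 29) and 517 in replicate 4 (rank 30), and the summits lay within 2 bp of the pooled summit. Its rank thus hardly differed between replicates. The summit lay 273 bp upstream of the only annotated TSS of the gene, in sequence between genes. The body of the next gene upstream, nst, transcribed in the same direction, ended 211 bp from the summit, and no TSS of another gene lay closer than 2577 bp. The CTCF core began 21 bp before the summit, as the printed sequence shows.

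The other subunits of eIF2 had no peak. At eIF2alpha, the subunit whose phosphorylation slows initiation, the strongest pooled region had a signal of 28.3 (rank 12127), with 18.5 in replicate 3 (rank 8535) and 13.1 in replicate 4 (rank 26479). eIF2gamma, the GTP-binding subunit, had no pooled promoter region and none in replicate 4, and a signal of 18.3 in replicate 3 (rank 8737). The exchange factor eIF2B, which reloads eIF2 with GTP, had no peak at any of its 5 genes. Beside 4.9% of all protein-coding genes, a count of 0 in 5 genes says very little. Only eIF2Bepsilon had a pooled region, with a signal of 21.9 (rank 23352). eIF2Bdelta had 12.0 in replicate 3 alone (rank 22316), and eIF2Balpha, eIF2Bbeta and eIF2Bgamma had no region in any list. A strong peak (signal 723, rank 46) did lie near eIF2Bbeta on the X chromosome, but its summit was 697 bp upstream, outside the window, and within 500 bp of the TSS of Ugalt, a sugar transporter gene.

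Of the 4 genes for factors that select the start codon and join the subunits, eIF1 alone had a peak, beside 4.9% of protein-coding genes. It had a pooled signal of 145 (rank 334), with 57.2 in replicate 3 (rank 757) and 86.7 in replicate 4 (rank 191). The summit lay 310 bp upstream of the eIF1 TSS but 71 bp upstream of that of RpL28, a ribosomal protein gene transcribed in the opposite direction. The snoRNA gene snoRNA:Or-CD11a also had its annotated start within the window, 490 bp away, inside RpL28. To which of these genes the site belongs cannot be told apart from position. The DRE began 14 bp after the summit on the eIF1 side. At eIF1A the pooled signal was 28.7 (rank 11638), 142 bp upstream of a TSS. Replicate 3 had 27.7 at 30 bp downstream, and replicate 4 had no region. At eIF5 it was 22.6 (rank 21599), with no region in replicate 3 and 14.0 in replicate 4. eIF5B, the GTPase of subunit joining, had no pooled region and 11.6 in replicate 3 (rank 23991).

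The scaffold eIF3, which binds the small subunit, had peaks at 2 of 16 genes, eIF3c and eIF3h. The share over all protein-coding genes was 4.9%. At eIF3c (chr2R:17665424-17665859) the pooled signal was 103 (rank 632), with 57.1 in replicate 3 (rank 760) and 46.2 in replicate 4 (rank 598), and the summit lay 36 bp upstream of the TSS. No other gene had a TSS within the window, the nearest being that of CCHa1-R at 574 bp. At eIF3h (chr2L:5052270-5052705) the signal was 81.4 (rank 978), with 62.4 in replicate 3 (rank 638) and 25.8 in replicate 4 (rank 2866). This summit differed from the other 7 genes' in lying downstream of the nearest TSS. It was in an intron, 292 bp from the inner TSS and 606 bp from the outer one. It was also 355 bp upstream of the TSS of senju. A second region at eIF3h, 33 bp upstream of the inner TSS, had a signal of 60.7 and ranked 1654, below the optimal list. In replicate 4 a region at 45 bp upstream was the stronger of the pair (28.4, rank 2042).

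The remaining eIF3 genes had regions below the optimal list or none. Pooled regions lay at 7 of the 16 genes, in all, a share near the 42.5% of all protein-coding genes. After eIF3c and eIF3h, the strongest was eIF3b at 45.6 (rank 3157; 33.2 in replicate 3 and 14.2 in replicate 4). The signals of eIF3a, eIF3f2, eIF3g1 and eIF3m were 21.3, 27.8, 27.9 and 21.7. eIF3d1, eIF3f1, eIF3k and eIF3l had a region in a replicate only, from 12.1 to 20.7 in replicate 3, and eIF3d1 also had 16.9 in replicate 4. eIF3d2, eIF3e, eIF3g2, eIF3i and eIF3j had none in any list.

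The eIF4 group, which binds the cap and unwinds the mRNA, had an optimal peak at 1 of 13 genes, beside 4.9% of all protein-coding genes. This was eIF4EHP. Its product is a cap-binding relative of eIF4E that represses translation, in the fly embryo on the maternal mRNAs caudal and hunchback. It had a pair of overlapping peaks. The stronger one (chr3R:24108859-24109294) had a signal of 74.2 (rank 1158), with 28.0 in replicate 3 (rank 3094) and 45.8 in replicate 4 (rank 609), and lay 117 bp upstream of the TSS. The other (chr3R:24109087-24109522) had 71.4 (rank 1247), with 30.3 (rank 2602) and 28.4 (rank 2021), and lay 345 bp upstream of eIF4EHP but 31 bp upstream of CG18428, a gene that runs the other way. A further optimal peak lay inside the eIF4EHP gene, 9797 bp from its TSS, with a signal of 81.3 (rank 980).

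The genes for the cap-binding protein eIF4E1, its scaffold and the helicase had promoter regions below the optimal list, on either side of the median of 31.7 over protein-coding genes. Pooled signals were 27.4 at eIF4E1 (rank 13275), 40.5 at eIF4G1 (rank 4313), 40.2 at eIF4G2 (rank 4423) and 39.5 at the helicase gene eIF4A (rank 4621). An optimal peak with a signal of 93.4 (rank 758) lay 4535 bp downstream of the nearest eIF4E1 TSS, near no annotated TSS. eIF4G2, used in the male germ line, was close to the high regions in replicate 3 (42.3, rank 1315) and had no region in replicate 4. Of the other eIF4E paralogues, eIF4E6 had a region in replicate 3 alone (16.9, rank 10588), and eIF4E3, eIF4E4, eIF4E5 and eIF4E7 had none. eIF4B and eIF4H2 had none either, and eIF4H1 had 12.6 in replicate 3 alone.

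eIF6 had the second strongest peak of the members. It encodes a protein that binds the large ribosomal subunit, takes part in its assembly and keeps it from joining the small one too early. The peak (chr2R:23850306-23850508) had a pooled signal of 238 (rank 152), with 142 in replicate 3 (rank 147) and 99.3 in replicate 4 (rank 166). Its width of 203 bp was below the 436 bp of 7 of the other 8 member peaks. The summit lay 106 bp upstream of the eIF6 TSS and 77 bp downstream of that of asRNA:CR45928, a noncoding gene on the opposite strand, within the body of the protein-coding gene ytr. The files carry no strand for a region, so these genes cannot be told apart. The lesser-known factors eIF2A and eIF2D, which in mammals can bring initiator tRNA without eIF2, had pooled signals of 49.9 (rank 2493) and 37.1 (rank 5509), and eIF2D came close to the high regions in replicate 4 (32.6, rank 1330).

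Among elongation factors, the peaks were at eEF1gamma and eEF2, and all 5 genes of the eEF1 complex had a candidate region. Over all protein-coding genes, 4.9% had a peak and 42.5% a candidate region. eEF1gamma encodes a structural subunit of the complex that reloads eEF1A with GTP. Its peak (FBgn0029176, chr3R:29219928-29220363) had a signal of 162 (rank 273), with 97.1 in replicate 3 (rank 268) and 69.9 in replicate 4 (rank 287). The summit lay 26 bp upstream of the TSS, with no other gene's TSS in the window, and the DRE began 15 bp before it. eEF2, the GTPase that moves the ribosome by a codon, had a signal of 87.1 (rank 866; chr2L:21681951-21682386), with 61.6 in replicate 3 (rank 651) but 23.5 in replicate 4 (rank 4128). Its summit lay 5 bp upstream of the outer of 2 TSSs. The replicates differed in where the summit fell, 2 bp upstream of the inner TSS in replicate 3 and on the outer TSS in replicate 4. Both TSSs lay within the region of either replicate (460 and 424 bp wide), so the summits do not separate the 2 starts. The inner TSS is the one with the TCT spelling in the printed sequence.

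The optimal list ended at a signal of 69.8, and eEF1alpha1 and eEF5 came closest to it among the other elongation factor genes. eEF1alpha1, the main gene for the carrier of aminoacyl-tRNA, had 60.6 (rank 1664), with 40.8 in replicate 3 (rank 1404) and 26.8 in replicate 4 (rank 2461). This summit lay inside the gene, 70 bp upstream of an inner one of its 4 TSSs. An optimal peak with a signal of 152 (rank 302) lay 1208 bp upstream of its outermost TSS, outside the window and near no annotated TSS. eEF5, the gene for the hypusine-bearing factor that relieves stalled ribosomes, had 59.2 (rank 1740), with 38.2 and 20.8. Lower down, the paralogue eEF1alpha2 had 42.6 (rank 3773), eEF1beta 41.8 (rank 3962) and eEF1delta 29.8 (rank 10407). eEFSec, the selenocysteine factor, had no region in any list.

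The release factor genes had candidate regions but no peak. eRF3, the GTPase partner, had a pooled signal of 50.9 (rank 2374), with 30.7 in replicate 3 (rank 2525) and 21.4 in replicate 4 (rank 5970), 326 bp downstream of a TSS. eRF1, which reads the stop codon, had 20.9 (rank 25864), with 16.8 and 12.8. With 2 genes, a count of 0 limits the share very little.

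Peaks at members were shared with a neighbouring gene about as often as elsewhere. Of the 8, 4 (eIF1, eIF3h, eIF4EHP and eIF6) had another gene's TSS within 500 bp of a peak summit, against 50.9% of the 684 protein-coding genes with a promoter peak. With protein-coding neighbours alone the number was 3 of 8, against 47.4%. Both shares lie near the background and are no result about the members. The peaks of eIF2beta, eIF3c, eEF1gamma and eEF2 were shared with no other gene. The maps of the 8 loci show the start sites around each summit.

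**Figure D2:**
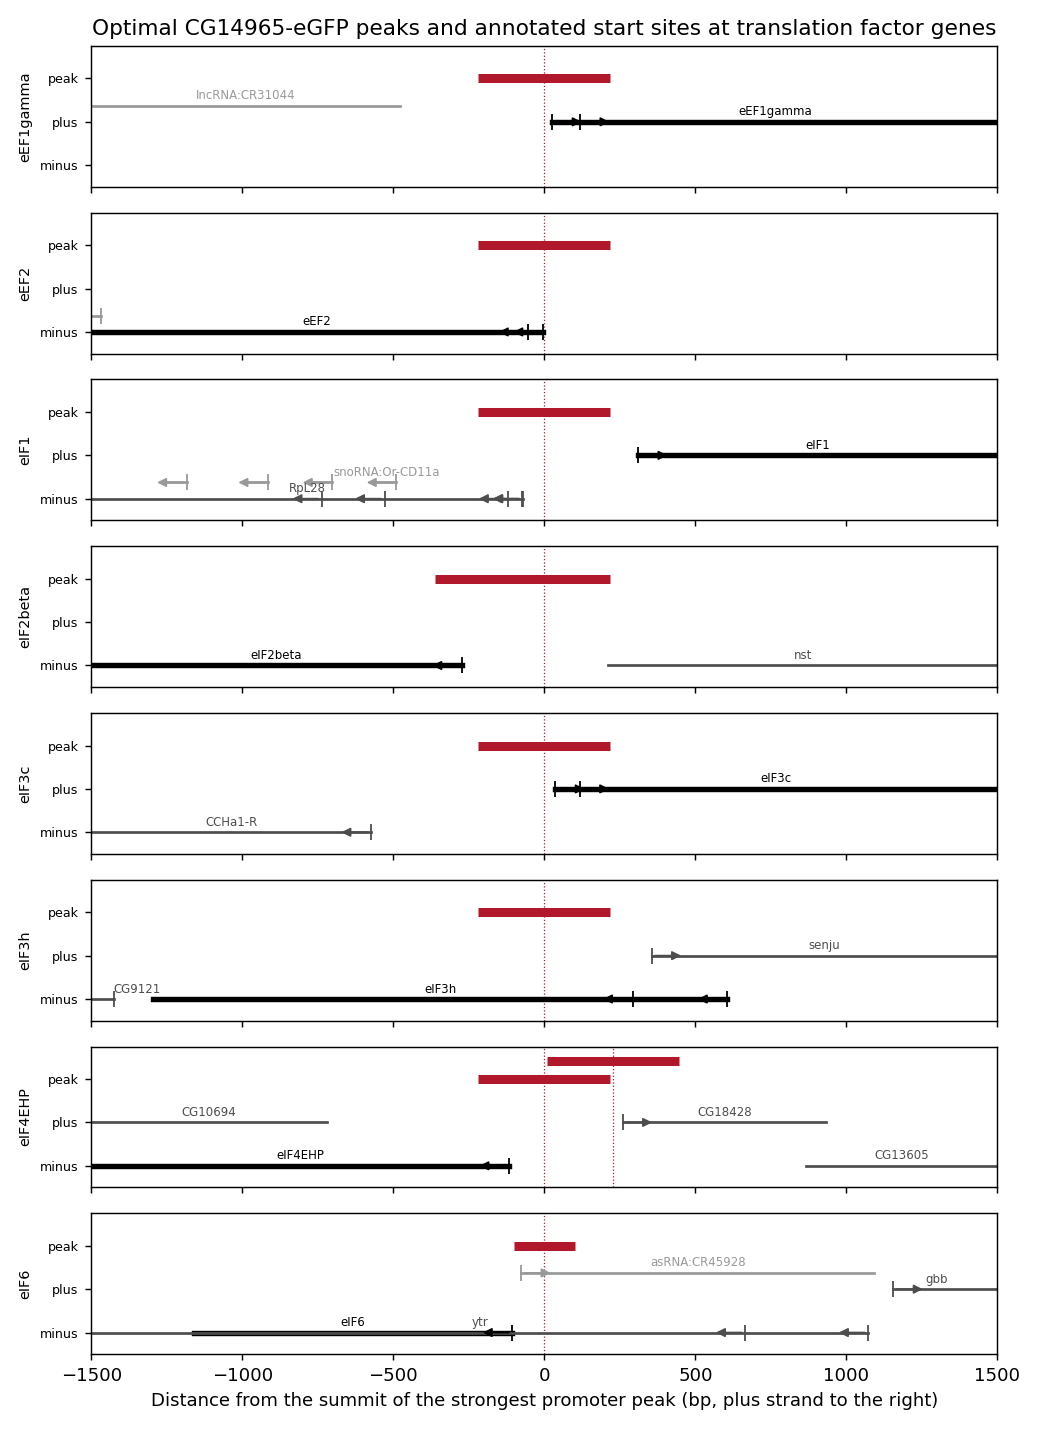
Optimal peaks (red bars, summit as a dotted line) and annotated genes within 1500 bp of the strongest summit at each of the 8 translation factor genes with a promoter peak. Black lines are the translation factor gene, dark grey lines other protein-coding genes and light grey lines noncoding genes, each on its strand. Ticks with arrows are TSSs. The x axis is distance in bp from the summit, and the TSS of eIF1 lies 310 bp to its right.

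In distance to the TSS, the summits at members were closer to those of all protein-coding genes than to those of ribosomal protein genes. Differences were not tested, and 8 genes do not set the members apart from all protein-coding genes. Of the 8 members' strongest peaks, 3 had a summit within 100 bp of a TSS (37.5%), against 29.7% of 684 protein-coding genes and 94.3% of the 35 cytosolic ribosomal protein genes with a peak. The peak between eIF1 and RpL28 enters both groups, at 310 bp for eIF1 and at 71 bp for RpL28. The median distance was 112 bp in the members, 163 bp over all protein-coding genes and 39 bp in the ribosomal protein genes. Summits lay upstream of the TSS in 7 of the 8, against 83.8% of protein-coding genes with a peak.

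**Figure D3:**
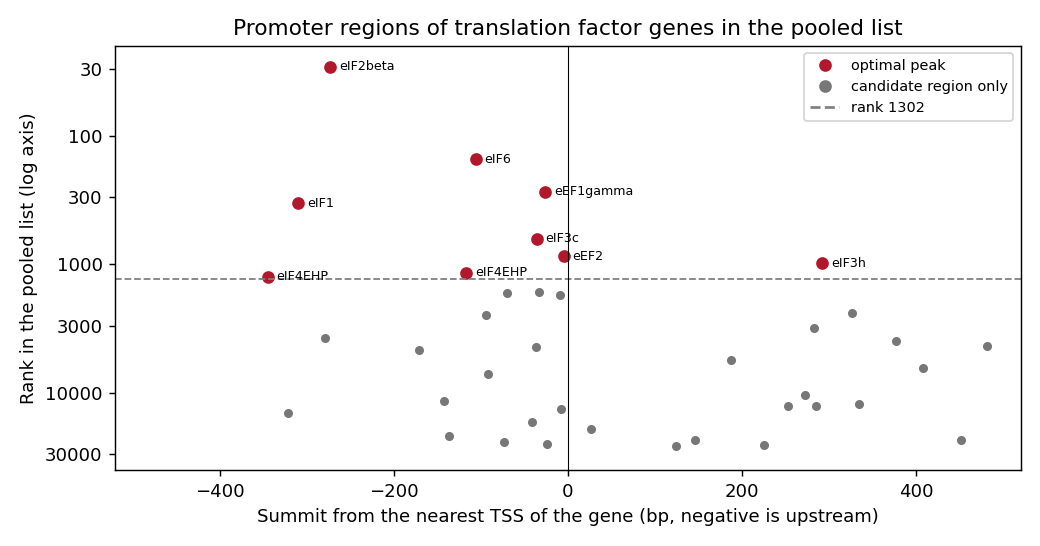
Position and rank of every region of the pooled list within 500 bp of a TSS of a translation factor gene. The x axis is the distance in bp of the summit from the nearest TSS of that gene (negative is upstream), the y axis is the rank on a log axis, red points are optimal peaks and grey points other candidate regions. Of the 9 red points 8 lie upstream, and eIF3h at 292 bp is the exception.

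Other gene lists of protein synthesis had peaks in different shares, beside 4.9% of all protein-coding genes. These shares were not tested against each other. Of the cytosolic ribosomal protein genes, 35 of 90 carried a peak (38.9%, 29.5 to 49.2%), with a median signal of 66.0 over the 76 with a candidate region. The peak between eIF1 and RpL28 is counted both there and among the translation factors. Cytosolic aminoacyl-tRNA synthetases had one in 2 of 18 (11.1%, 3.1 to 32.8%, an interval that holds the 4.9%), namely IleRS and GluProRS. IleRS had a pooled value of 85.0 (replicate 3 41.9, replicate 4 43.9) and GluProRS 69.8 at rank 1299 (replicate 3 32.4, replicate 4 40.3). Of the regulators of translation, 2 of 14 had a peak (14.3%, 4.01 to 39.9%, which also holds the 4.9%). They were Thor, the eIF4E-binding protein that blocks cap-dependent initiation (92.4; 62.1 in replicate 3 and 25.1 in replicate 4), and Gcn2, a kinase of eIF2alpha (74.4; 53.2 and 24.7). None of the 15 mitochondrial synthetases and none of the 8 mitochondrial translation factors had a peak, and 3 genes over the number in the list, the limit used for a count of 0, gives shares of up to 20% and 37.5%. The Wilson upper bounds are 20.4% and 32.4%. The factor symbol mEFG2 and the regulator symbol Tor were not matched in the annotation.

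**Figure D4:**
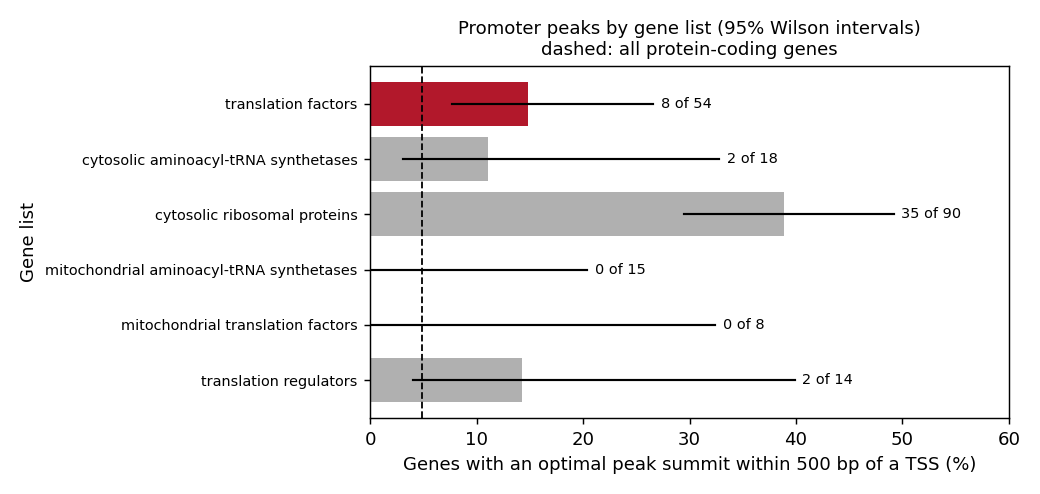
Share of genes with an optimal peak summit within 500 bp of a TSS (x axis, percent) for the translation factors (red) and 5 other lists of protein synthesis genes (grey). Black lines are 95% Wilson intervals over genes, labels give the counts, and the dashed line at 4.9% is all protein-coding genes.

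Known elements were counted from 250 bp upstream to 50 bp downstream of the outermost TSS of each gene, on both strands. The DRE, spelled TATCGATA, was in 15 of 54 members (27.8%), in 27 of 90 ribosomal protein genes (30%) and in 9.37% of all protein-coding genes. Of the 15 members with it, 3 had a peak (eEF1gamma, eIF3c and eIF6), against 5 of the 39 without it. This split was not counted over all protein-coding genes, and a link of the DRE to peaks was not tested. The TCT start, spelled TCTTTT or TCTTTC or CCTTTT or CCTTTC and sought within 10 bp of that TSS on its own strand, was in 4 members (7.41%: eEF1delta, eIF3f1, eIF3i and eIF4A), in 40.0% of ribosomal protein genes and in 1.97% of protein-coding genes. None of the 8 members with a peak had it at the outermost TSS. Motif 1 was in 3 members (5.56%) and in 4.5% of protein-coding genes, and motif 6 in 3 members and 2.23%. The TATA box, spelled TATAAA, was in 46.3% of members, in 5 of the 8 with a peak (62.5%) and in 45.9% of protein-coding genes. In those 5 members the matches began between 250 and 77 bp upstream of the TSS. The E-box CACGTG was in 7.41% of members and 4.24% of protein-coding genes. A match is a match of letters, not a site in use.

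**Figure D5:**
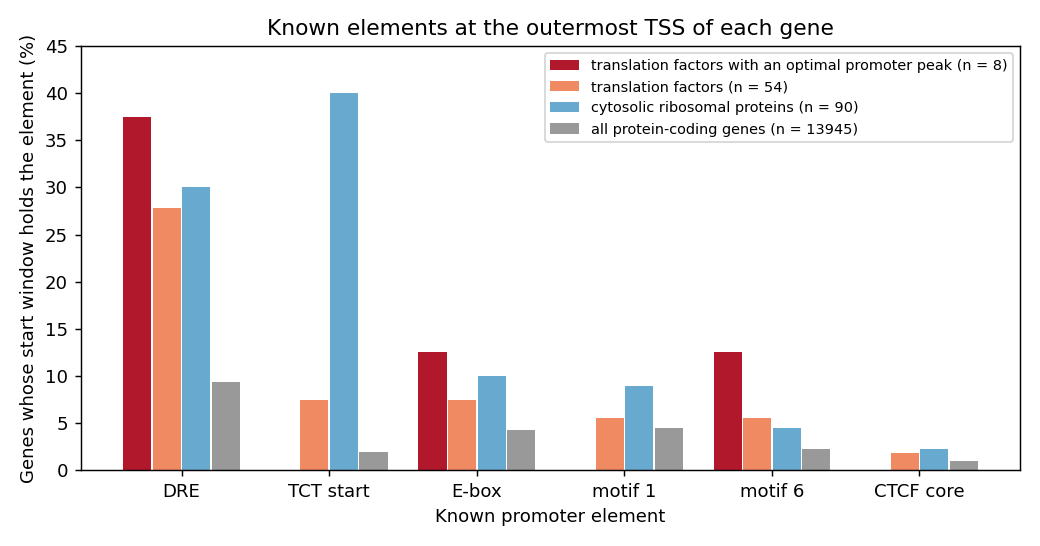
Share of genes (y axis, percent) whose window at the outermost TSS holds each element on the x axis, which leaves out the TATA box. Groups are the 8 translation factor genes with a promoter peak, all 54, the 90 cytosolic ribosomal protein genes and all 13945 protein-coding genes. The window runs from 250 bp upstream to 50 bp downstream, or 10 bp to each side for the TCT start. The DRE stands at 27.8% of translation factors and 9.37% of all protein-coding genes.

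At the summits themselves, the window of 50 bp to each side was searched in the 9 member peaks. The DRE lay in 2 of the 9 (eEF1gamma and eIF1), against 2.73% of 587 optimal promoter peaks and 1.72% of 7396 promoter candidate regions. The CTCF core, spelled AGATGGCGC, AGAGGGCGC, AGGTGGCGC or AGGGGGCGC, lay in the eIF2beta peak alone, against 3.24% of promoter peaks and 0.69% of promoter candidate regions. It was outside the promoter window counted above, and no member with a peak held it there. The E-box CACGTG was in the eEF2 peak alone, against 2.9% of promoter peaks, and the TATA box in that of eIF6 alone, against 14.7%. Motifs 1 and 6 were in none of the 9, against 0.17% and 0.681% of promoter peaks, so their absence says little about the members. No element searched lay at the eIF3c, eIF3h or eIF4EHP summits. The mean GC content was 39.7% in the 9 windows, 38.0% in all optimal promoter peaks and 44.8% in promoter candidate regions.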

How the data were processed

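Regions in narrowPeak form were deposited on dm6 for each replicate and for both pooled. Per the deposited text files they derive from the alignments and 1 further file that is not described, and the optimal list derives from these 3. The labels name a possible control, not analysed here. The signal in column 7 is a deposited score of unstated scale. Column 9 is a deposited −log10 q-value and served only to break ties of rank. The deposited summit offset gave the summit. Which caller and aligner made them is not given in the sources used here. Lists on dm3 were not used here, since no dm3 annotation was at hand. No read numbers are given, so depth and its precision are unknown.

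Summits were set against TSSs of Ensembl 115 (BDGP6) without transposable elements, in Python 3.11.15. All 91302 dm6 regions fitted the chromosomes of RefSeq Release 6, from which sequences were read, and the outermost coding start of 54 of 54 members read as a start codon there. Window assignment was tested on simulated data. Replicate regions beside a peak overlap it by at least 1 bp and have the nearest summit, while counts by replicate use that replicate's own summits. In each list the region of highest signal stands for a gene. Named were members with a peak or a high region, the strongest of each complex, members with no pooled region and genes sharing a peak; others are given by value. Members and lists were chosen with earlier results of these data known. No test was made. Alternatives were other windows, nearest or outermost TSS only, the 651 strongest peaks, either replicate alone, and 651 or 2604 high regions.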

Additional observations from a re-analysis of the deposited data

How the results depend on the processing

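No paired analysis was possible because both samples belong to 1 group. Of 22 alternatives to the counts, 14 moved a count by at most 1.5 times. The number of members with a peak was 5 with a 250 bp window, where eIF1, eIF2beta and eIF3h fell out (3.59% of protein-coding genes), and 5 with the 651 strongest peaks (2.5%). It ran from 6 to 9 in the others, where the share of protein-coding genes ran from 3.78% (nearest TSS only) to 6.07% (1000 bp window). eIF2Bbeta entered with a 1000 bp window, eIF1 and eIF6 fell out when a summit counted for the nearest TSS only, and eIF3h with the outermost TSS only. Members high in both replicates numbered 3 with the 250 bp window, with the nearest TSS only and with 651 high regions, and 8 with 2604. Members sharing a peak numbered 1 with the 250 bp window and 2 with the 651 strongest peaks. The same counts over all protein-coding genes were not made at these settings, so neither set of numbers is a result about the members. The median pooled signal was 39.8 with the 250 bp window and 38.9 with the 1000 bp window (32.2 and 31.7 over protein-coding genes), and no spread on that list's scale is at hand to set these against. With 1 replicate, on that list's own scale, it was 21.4 to 23.6, against 18.4 and 19.0 over protein-coding genes. Unknown depth limits what a missing region means: it ranked below 30000, not at 0.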
